A study of Mus musculus with 16 samples.

Results

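Steady-state transcripts were described in mouse TCF1+ CD8+ T cells that had been activated repeatedly in culture and were then kept in IL-2, without further beads and without prostaglandin E2 (PGE2). These were the 4 libraries of the unstimulated untreated group, of 16 in the series, and were chosen by their labels alone. The other 12 libraries, from cells given PGE2, anti-CD3/CD28 beads or both, were not used here, and no comparison between groups was made. Naive CD8+ T cells from C57BL/6J spleens were differentiated over 4 days with IL-2 at 85 U/ml and repeated rounds of anti-CD3/CD28 beads, and live cells were purified on a density gradient. They were then held for 1 h without PGE2 and for 4 h in IL-2 at 85 U/ml with no beads, and bulk RNA was sequenced after poly(A) selection. The cells are therefore an in vitro model of antigen-experienced stem-like T cells and were not taken from a tumour. The sources do not say whether the 4 replicates came from separate mice or cultures, so the spread given here may be partly technical.

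TCF1, encoded by Tcf7, is a DNA-binding factor of the HMG-box class that acts downstream of Wnt signalling in thymocytes and maintains naive, memory and stem-like CD8+ T cells. Stem-like cells keep receptors that bring T cells into lymph nodes, such as CCR7, self-renew, and give rise to effector cells that make granzymes and interferon-γ. IL-2 binds a receptor of 3 chains (CD25, CD122 and the common γ chain) and signals through JAK1, JAK3 and STAT5, whereas PGE2 acts on EP2 and EP4, which couple to adenylyl cyclase and raise cAMP.

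All values are FPKM (fragments per kilobase of gene length, scaled to library depth). They are given as mean ± SD over the 4 libraries (n = 4) unless each library is listed. FPKM is a scale per length on which different genes can be set side by side, within a limit. The length equalled that of all exons merged for 98.0% of the genes found in the GENCODE M21 annotation. A gene whose main transcript is shorter than that is listed too low, so orders and folds between genes carry this uncertainty. Libraries are listed in the order of replicates 1 to 4, an order that carries no meaning. A gene was counted as present when it reached an FPKM of 1 in all 4 libraries. No test between groups was run, since 1 group is described. The order of 2 genes was read within each library, and 4 libraries cannot give a two-sided sign-flip p below 0.125. The libraries held 22678254 to 33537827 counts, and log2 levels of any 2 of them correlated across 10588 genes with Pearson's r of 0.988 to 0.995 (genes are not independent replicates). The libraries differed by more than counting error, with a chi-square per degree of freedom of 9.53 to 28.4 for the pairs, so none was a copy of another. Mitochondrially encoded genes took 1.64% to 1.77% of the counts.

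The markers of the label were abundant in all 4 libraries. Tcf7 (ENSMUSG00000000782, GRCm38 chr11:52252371-52283014, minus strand) stood at 538, 441, 394 and 329.7, with a mean of 426 ± 87.8. Cd8a (chr6:71373427-71379173, plus strand), the α chain of the CD8 coreceptor, stood at 264, 271, 252 and 245. Ccr7 (chr11:99144196-99155077, minus strand), the receptor for the lymph node chemokines CCL19 and CCL21, stood at 516, 511, 529.5 and 526. Cd8a and Ccr7 each varied little between libraries, and Tcf7 was highest in replicate 1 and lowest in replicate 4. All 15 CD8 T cell markers were present, from 1209 for Trbc2 to 47.2 for Cd247, which encodes the ζ chain and shares 60.3% of its exon bases with other genes. Of 17 stem-like and homing markers 16 were present, the exception being Cxcr5 at 0.487 ± 0.135. Of 20 effector and exhaustion markers 15 were present as well, led by Gzmb, beside 9266 of 22046 protein-coding genes. Presence alone therefore does not tell stem-like from effector cells.

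The most abundant transcripts are described first, with the sequence at which they start, because many of them belong to the class known as TOP messages. These begin with a C followed by a run of pyrimidines, the terminal oligopyrimidine tract, through which mTOR signalling controls their translation. RefSeq start sites on GRCm38.p6 were read for the genes below, each from 15 bases before the start to 15 bases after it. Capitals mark a C followed by at least 4 bases that are each C or T and beginning within 5 bases of the start, on the sense strand. The first 6 windows belong to abundant translation genes that have the tract. The last 3 belong to genes of the 100 most abundant in whose windows it was not found, the ribosomal protein gene Rplp0 among them. The B2m window does hold a run of this kind, but it begins just outside those 5 bases:
Eef1a1 (chr9:78481710-78481739, minus strand): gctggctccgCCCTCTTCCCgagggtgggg
Fau (chr19:6057932-6057961, plus strand): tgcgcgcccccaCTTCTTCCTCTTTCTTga
Rps6 (chr4:86857353-86857382, minus strand): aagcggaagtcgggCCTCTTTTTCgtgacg
Rps27 (chr3:90213634-90213663, minus strand): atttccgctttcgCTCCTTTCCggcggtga
Rps18 (chr17:33955651-33955680, minus strand): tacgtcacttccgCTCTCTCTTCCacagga
Rpl38 (chr11:114668565-114668594, plus strand): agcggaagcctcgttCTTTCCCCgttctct
B2m (chr2:122147672-122147701, plus strand): cctggctggctctcatttcagtggctgcta
Tmsb4x (chrX:167209204-167209233, minus strand): cggactacgagtgacatcacctcatttgca
Rplp0 (chr5:115559452-115559481, plus strand): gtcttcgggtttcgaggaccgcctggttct

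Of the 100 most abundant protein-coding genes 68 were found in the RefSeq promoter table, and 28 of these (41.2%) had the tract, against 21.2% of the 27025 gene symbols in the table. Among the ribosomal protein genes in that top 100, 20 of 41 (48.8%) had it, and among the other genes 8 of 27 (29.6%). Protein-coding genes of the next 400 ranks had it in 25.8%, and those without a count in any library in 18.2%. Counted by start site in place of gene, the share was 35.7% in the top 100 and 18.3% over all 32851 start sites. The letters TATAAA between 40 and 20 bases before the start were found in 1 of the 68 genes (1.47%), in 2.31% of all symbols and in 5.79% of protein-coding genes without a count. A match is a run of letters and was not shown to be a functional element.

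The most abundant messages were those of ribosomes, respiration and the cytoskeleton. Mitochondrially encoded mt-Co1, the core subunit of cytochrome c oxidase, was first at 5762 ± 132. Rplp1, of the ribosomal stalk, followed at 4664 ± 501.4, and Eef1a1, the elongation factor that delivers aminoacyl-tRNA, at 4579 ± 31.3. Eef1a1 was almost constant, with 4614, 4562, 4596 and 4546 in the 4 libraries, whereas Rplp1 had 5359, 4241, 4694 and 4362, so that the 2 genes changed places between libraries. B2m, the light chain of MHC class I, stood at 2440.3 ± 148, and Tmsb4x, the actin-sequestering peptide thymosin β4, at 2336 ± 111. Of the 20 most abundant protein-coding genes, 13 encode ribosomal proteins, counting Fau, whose product is a fusion with a ubiquitin-like peptide. The others among the 20 were mt-Co1, Eef1a1, B2m, Tmsb4x, the translocation factor Eef2 at 1535 ± 76.4, β-actin (Actb) at 1477 ± 78.8 and Tpt1, the translationally controlled tumour protein, at 1248 ± 83.1.

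**Figure D1:**
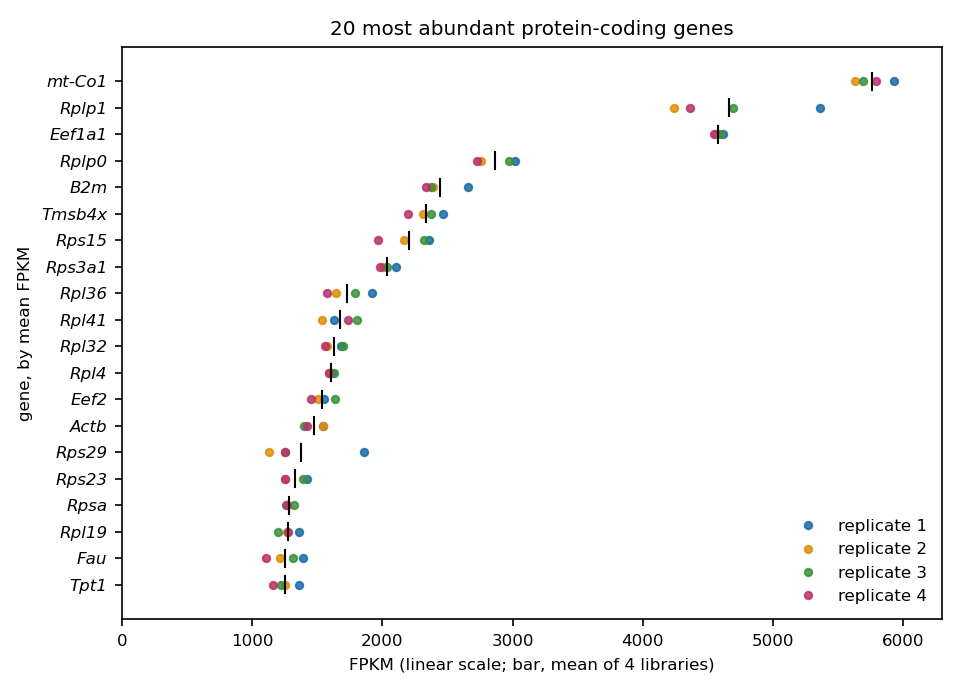
FPKM (x axis, linear) of the 20 protein-coding genes with the highest mean level, with 1 point per library, coloured by replicate, and a bar at the mean. mt-Co1 lies between 5631 and 5933 in the 4 libraries, and the points of Eef1a1 almost coincide while those of Rplp1 are spread from 4241 to 5359.

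The distribution was steep. Of 54532 genes in the table, 10599 were present (9266 of them protein-coding), 4445 reached an FPKM of 10 in all 4 libraries, 389 reached 100 and 28 reached 1000. The 100 most abundant of the 47739 genes of at least 200 bases held 32.3% ± 0.739 of the summed FPKM, and 55 of them were ribosomal protein genes, 8 mitochondrial and 6 pseudogenes. All ribosomal protein genes together took between 19.04% and 20.8% of the summed FPKM. Over the present genes the median level was 8.61, and the median coefficient of variation between libraries was 8.11%, against 2.94% from counting error alone.

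Several very abundant genes have near-identical copies, between which reads may be split. Of the 100 most abundant protein-coding genes 69 had at least 1 other gene in GENCODE M21 that matched at least 95% over at least 300 bases. The processed pseudogene Gm9794, a copy of Rpl23, was listed at 1159 beside 530.4 for Rpl23 itself. Gapdh, the glycolytic enzyme often used as a reference gene, was at only 11.9, 34.98, 65.5 and 19.1 in the 4 libraries and had 76 such copies. Its own counts were 1165, 4551, 10161 and 2770, and those of the copies together 1444, 2930, 5534 and 3800. Gene and copies together came to 115, 259, 468 and 210 CPM (counts scaled to library depth), so their sum differed between libraries as well. Nme2, a nucleoside diphosphate kinase, was listed at 0.398 ± 0.145 while its copy Gm7730 stood at 30.9, and 48.9% of its exon bases lie in Gm20390 on the same strand, which is listed at 0. Levels of these genes are therefore uncertain.

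Tcf7 was the most abundant of the 1465 genes that the table assigns to a transcription factor family, and ranked 93rd of all protein-coding genes. It ranked first in each of the 4 libraries. The high-mobility-group protein Hmgb2, an architectural DNA-binding protein of dividing cells, was next at 325, 320.0, 305 and 325. In replicate 4 the 2 were nearly level, and in replicate 1 Tcf7 was 1.66-fold higher. The RNA- and DNA-binding cold-shock protein Ybx1 followed at 254 ± 14.2, then the AP-1 subunit Junb at 163 ± 35.2, the zinc-finger protein Maz at 136 ± 6.49, the lymphoid factor Ets1 at 115 ± 12.4, the amino-acid stress factor Atf4 at 106 ± 5.94 and Klf2, which drives S1pr1 in naive and memory T cells, at 95.8 ± 18.2. The others of the first 20 lay between 90.7 and 50.6: Ssrp1, Ybx3, Mta2, Ikzf1, Cbfb, Mbd2, Bhlhe40, Stat6, Jund, Irf1, E2f4 and Tfdp1. These include chromatin proteins (Ssrp1, Mta2, Mbd2) as well as sequence-specific factors.

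**Figure D2:**
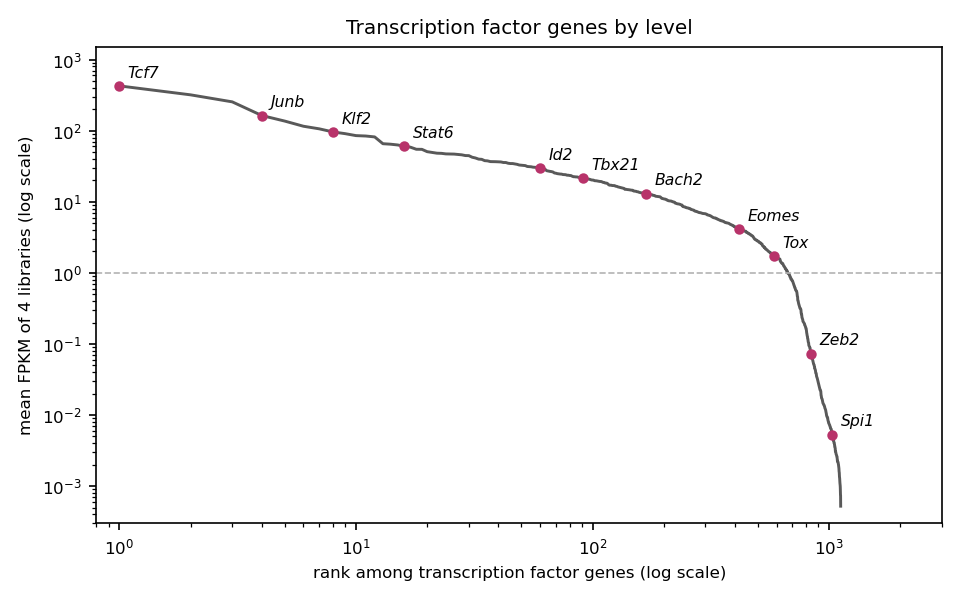
Mean FPKM of the transcription factor genes with a count (y axis, log scale) against their rank (x axis, log scale), with 11 genes marked and a dashed line at an FPKM of 1. Tcf7 is at the top left at 426, Tbx21 lies in the middle at 21.3, and Zeb2 and Spi1 lie on the steep part below 0.1.

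Of the 1465 transcription factor genes 652 were present and 346 had no count in any library. By class, all 10 E2F, all 7 STAT and 8 of 9 IRF genes were present, whereas of 232 homeobox genes 13 were (5.60%) and 143 had no count, and of 9 PAX genes none reached an FPKM of 1 in all 4 libraries. Zinc-finger genes of the C2H2 type, the largest class, were present in 312 of 572 cases.

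Within a list of 8 TCF, LEF and TOX factors, Tcf7 took 91.1% ± 0.624 of the summed FPKM. Its paralogue Lef1, which acts with TCF1 in T cell development, stood at 27.1, 24.2, 20.9 and 17.1 and was 19.04-fold lower (SD 0.6801), a ratio that hardly moved although both genes were highest in replicate 1. Tox, linked to exhaustion, stood at 1.72 ± 0.125 and Tox2 at 0.0828 ± 0.0174. Among effector factors, the T-box gene Tbx21 (T-bet) stood at 21.3 ± 1.42, and its paralogue Eomes at 4.13 ± 1.13, lower in all 4 libraries with ranges that did not overlap. Prdm1 (Blimp-1), a driver of terminal effector differentiation, stood at 1.42 ± 0.278, its antagonist Bcl6 at 2.09 ± 0.275, and Zeb2, which goes with terminal effectors, at 0.0727 ± 0.0404. Bach2, which restrains effector genes, stood at 13.00 ± 0.118, Foxo1 at 19.6 ± 1.05 and the chromatin organiser Satb1 at 25.2 ± 3.14.

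The ID proteins, which block E proteins from binding DNA, were led jointly by Id3 and Id2. Id3, typical of stem-like and memory cells, stood at 40.3, 31.1, 27.8 and 23.4, and Id2, typical of effectors, at 29.5, 28.2, 26.6 and 33.5. Id3 was the higher of the 2 in 3 of 4 libraries and their ranges overlapped, so their order could not be told. Of the E proteins, which ID proteins bind, Tcf3 held 84.1% ± 1.38 and Tcf4 was at 0.08701 ± 0.0207. Ikzf1, the founding Ikaros factor, held 71.6% ± 1.96 of its family, and Runx3, the RUNX factor of CD8 lineage cells, stood at 36.7 ± 4.16 against 0.924 ± 0.184 for Runx1. Gata3 stood at 10.9 ± 0.479.

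All 7 STAT genes reached an FPKM of 10 in all 4 libraries, beside 4445 of all 54532 genes. Stat6 led at 60.4 ± 1.24, and among the others Stat5b stood at 46.2 ± 2.32, Stat3 at 28.8 ± 6.45, Stat4 at 24.7 ± 0.427, Stat5a at 13.4 ± 1.55 and Stat2 at 11.8 ± 0.601. Stat5b, which carries the IL-2 signal together with Stat5a, was 3.495-fold higher than Stat5a (SD 0.541) and higher in all 4 libraries. Stat5a and Stat5b match at least 95% over at least 300 bases, so reads may be split between them and the fold is uncertain. The kinases that act with them were led by Jak1 at 101.1 ± 20.4 and Jak3 at 50.1 ± 5.798.

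Of 7 EGR and NR4A factors, which T cell receptor signals are known to induce, 6 were present, the exception being Egr4 at 0.144 ± 0.05003. Of 16 AP-1 and BATF factors 11 were present, beside 652 of all 1465 transcription factor genes. Nr4a1 stood at 21.3 ± 6.31, Nr4a3 at 11.8 ± 5.83, Nr4a2 at 3.65 ± 1.81, Egr1 at 6.83 ± 1.35, Egr2 at 1.44 ± 0.312, Irf4 at 20.5 ± 9.600 and Fos at 0.973 ± 0.486. Of the NF-κB genes all 5 were present, from 37.8 for Rela to 10.3 for Rel, and of the NFAT genes Nfatc3 at 21.4 ± 1.93 and Nfatc1 at 21.01 ± 1.16 were about level. Myc stood at 47.9 ± 7.86, its partner Max at 36.5 ± 0.884, and Hif1a, the oxygen-regulated glycolytic factor, at 49.3 ± 4.905.

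Of 228 surface genes examined 145 were present, 24 at an FPKM of 100 or more, and 11 had no count. Of all 22046 protein-coding genes 9266 were present and 6718 had no count. The MHC class I genes B2m, H2-K1 and H2-D1 were among the highest, H2-K1 at 951 ± 93.8 and H2-D1 at 802 ± 60.03. Within the T cell receptor complex, Trbc2 stood at 1209 ± 84.5, Trbc1 at 566 ± 19.9, Trac at 340.4 ± 30.7 and Cd3d at 232 ± 23.2. Trbc1 and Trbc2 are near-identical, so their split is uncertain. Cd8b1, the CD8 β chain, was 1.74-fold higher than Cd8a (SD 0.164) in all 4 libraries, and Cd4 was at 0.0822 ± 0.122.

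The IL-2 receptor was present with all 3 chains. Il2rb (CD122), shared with the IL-15 receptor, stood at 302, 305, 301 and 292. Il2rg, the common γ chain shared by the receptors for IL-2, IL-4, IL-7, IL-9, IL-15 and IL-21, stood at 121, 121, 119 and 113. Of the Il2rg exon bases 30.5% lie in Gm20489 on the same strand, listed at 0.0108, so the Il2rg level is uncertain. Il2ra (CD25), the chain that confers high affinity, stood at 60.6, 71.98, 69.5 and 105. Thus Il2rb and Il2rg were nearly constant while Il2ra was highest in replicate 4 and lowest in replicate 1, and the order Il2rb over Il2rg over Il2ra held in all 4 libraries without overlap of ranges. Among the other chains that pair with the common γ chain, Il4ra stood at 49.6 ± 6.22, Il21r at 48.1 ± 3.35, Il7r at 33.6 ± 1.82 and Il15ra at 2.33 ± 0.393, whereas Il9r was at 0.0673 ± 0.04697.

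Of 35 cytokine receptor genes 26 were present, beside 9266 of 22046 protein-coding genes. Ifngr1, the ligand-binding chain of the interferon-γ receptor, was second only to Il2rb at 237 ± 15.6, and its signalling partner Ifngr2 was 40.4-fold lower (SD 7.08) at 5.96 ± 0.659. Tgfbr2 stood at 21.2 ± 3.19 and Tgfbr1 at 4.53 ± 0.667. For IL-12, Il12rb1 stood at 8.19 ± 1.37 and Il12rb2 at 22.4 ± 3.799, of which 40.04% of exon bases lie in Serbp1 on the other strand. Il18r1 stood at 12.4 ± 1.405. No count was found for Il1r1 or Il23r, which allows up to 0.0199 and 0.0508 FPKM in the shallowest library.

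Receptors for lymph node entry and egress were the most abundant of the migration genes. Ccr7 took 62.7% ± 3.5 of the 26 chemokine and egress receptors, followed by the sphingosine-1-phosphate receptors S1pr4 at 95.5 ± 18.6 and S1pr1 at 78.01 ± 22.2 and by Cxcr4 at 60.1 ± 5.17. S1pr4 was higher than S1pr1 in all 4 libraries, although the ranges overlapped. Receptors for inflamed tissue were lower: Cxcr3 stood at 34.4 ± 7.77, Cxcr6 at 27.02 ± 2.69, Ccr2 at 1.09 ± 0.288 and Cx3cr1, a marker of effector cells, at 0.05602 ± 0.0182.

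Inhibitory receptors were led by Ctla4, which took 59.3% ± 2.13 of the 16 examined and stood at 286, 318, 340.4 and 359. Cd96 followed at 71.1 ± 2.17, Vsir (VISTA) at 48.6 ± 8.12, Lag3 at 36.3 ± 7.59 and Tigit at 19.5 ± 3.61. Pdcd1 (PD-1) stood at 3.95, 6.06, 9.205 and 10.9, lowest in replicate 1. Havcr2 (TIM-3), found on exhausted effectors, stood at 0.418, 0.817, 0.832 and 1.42 and reached an FPKM of 1 in replicate 4 alone. Of 23 costimulatory receptors 21 were present, beside 9266 of 22046 protein-coding genes. They were led by Cd2 at 174 ± 6.28, Cd48 at 159.5 ± 13.3 and Cd27 at 102 ± 4.005, and Cd28 stood at 45.4 ± 2.29. The TNF-receptor family members Tnfrsf9 (4-1BB) at 47.3, 67.3, 86.3 and 144 and Tnfrsf4 (OX40) at 13.6, 27.3, 43.3 and 71.8 differed between libraries by more than any other receptor of this class.

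The receptors through which PGE2 acts were of low abundance. Ptger4 (EP4, chr15:5206661-5244187, minus strand) stood at 4.64, 4.53, 4.89 and 4.999, from 732, 948, 1220 and 1164 counts. Ptger2 (EP2, chr14:44988195-45003820, plus strand) stood at 1.18, 1.08, 1.22 and 1.03, from 146, 176, 237 and 187 counts. Ptger4 was 4.25-fold higher (SD 0.424), in all 4 libraries and without overlap, and both were present although low. Ptger3 was at 0.00405 ± 0.00531 and Ptger1 was listed at 0.389 ± 0.0546, but 71.0% of the exon bases of Ptger1 lie in a gene on the other strand. The prostacyclin receptor Ptgir stood at 0.8303 ± 0.1502, and no count was found for the receptors of prostaglandins D2 and F2α, Ptgdr and Ptgfr, which allows up to 0.0397 and 0.0186. More abundant were the thromboxane receptor Tbxa2r at 27.1 ± 4.39, which couples to other G proteins, and the adenosine receptor Adora2a at 11.9 ± 0.756, which like EP2 and EP4 raises cAMP.

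**Figure D3:**
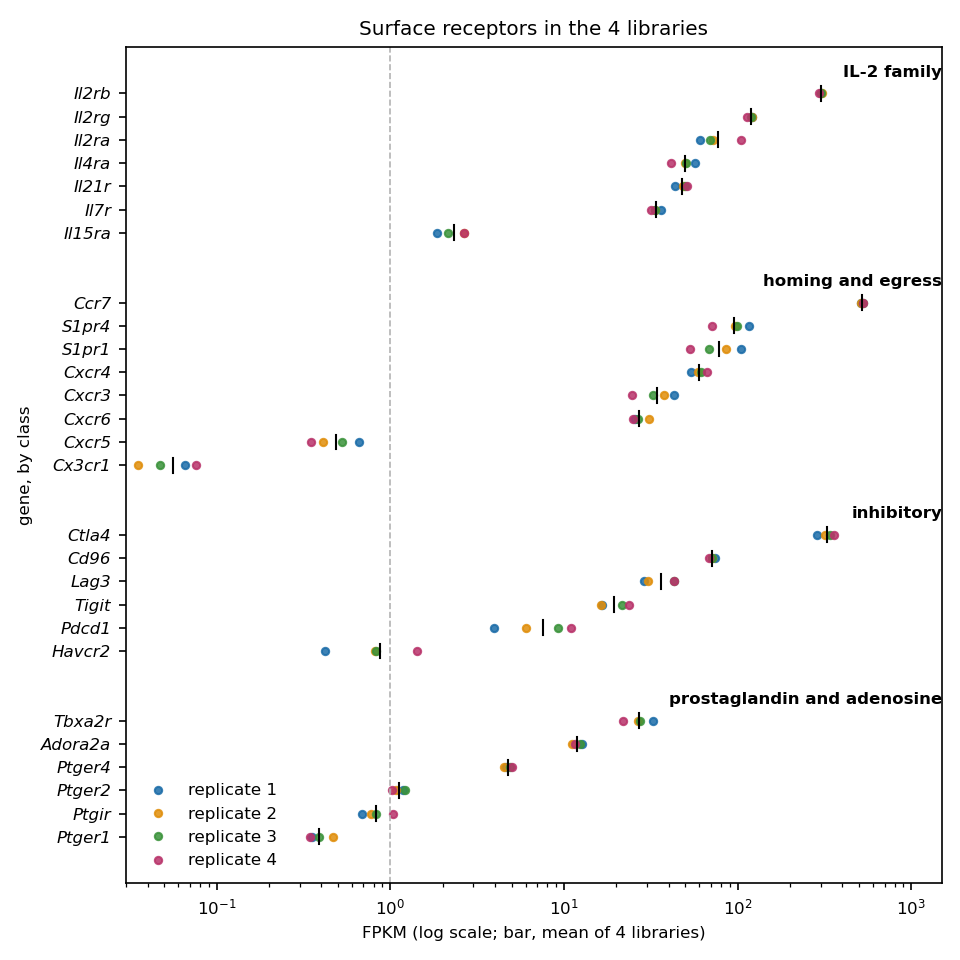
FPKM (x axis, log scale) of 27 surface receptors in 4 classes, with 1 point per library, coloured by replicate, a bar at the mean and a dashed line at 1. Il2rb and Ccr7 points almost coincide, Pdcd1, Il2ra and Havcr2 are spread, and Ptger4 and Ptger2 lie between 1.13 and 4.76 at the mean.

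Integrin β chains were led by Itgb7, of the gut-homing and αE integrins, at 233 ± 23.9 and by Itgb2 at 86.03 ± 7.75, and α chains by Itgal, which pairs with Itgb2 as LFA-1, at 54.04 ± 4.45 and by Itgae (CD103) at 37.4 ± 2.26. Itgal was higher than Itgae in all 4 libraries, 1.45-fold (SD 0.0705), and Itga1, of the collagen receptor of resident cells, was at 0.00128 ± 0.001501. Of 18 NK-type receptors 3 were present: Klrd1 (CD94) at 141 ± 23.3, Klrk1 (NKG2D) at 9.898 ± 2.33 and Crtam at 3.396 ± 0.327. Klrc1 (NKG2A), the partner of CD94, was at 0.703 ± 0.286, and Klrg1, a marker of terminal effectors, at 0.0274 ± 0.0424. Nutrient carriers were common. The glucose transporter Slc2a1 stood at 93.3 ± 5.08, 1.702-fold above Slc2a3 (SD 0.382), and the transferrin receptor Tfrc stood at 77.9 ± 11.04, the lactate exporter Slc16a3 at 72.5 ± 3.83, the glutamine carrier Slc1a5 at 53.7 ± 1.903 and both chains of the large neutral amino acid carrier, Slc3a2 and Slc7a5, at 52.96 ± 2.97 and 44.1 ± 2.94. Insulin-regulated Slc2a4 was at 0.00816 ± 0.00629.

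Of 265 genes in the enzyme lists 203 were present, 19 at 100 or more, and 12 had no count. Of all 4513 genes whose description holds an enzyme word, 2476 were present and 837 had no count. Ranked over all 4513 genes whose description holds an enzyme word, the first 5 were subunits of the mitochondrial respiratory chain (mt-Co1, mt-Nd1, mt-Nd6, mt-Nd5 and mt-Nd4, from 702 to 5762), and the next 3 glycolytic enzymes. These were Pgk1 at 654 ± 68.3, Aldoa at 642 ± 28.9 and Ldha at 611 ± 27.2, whose order differed between libraries for Pgk1 and Aldoa. The others of the first 20 were mt-Nd2, Gimap4, Pkm, Eno1, Rack1, Ppia, Ppp1ca, Cox8a, Tpi1, Ptprcap, Cox7a2l and Gimap3, from 290.1 to 547. Rack1 and Ptprcap are not enzymes themselves and entered by the wording of their descriptions, and the granzyme Gzmb, at 498 ± 139.6, was missed by it, since its description holds no word ending in -ase.

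Several glycolytic steps were each led by 1 member. Aldoa held 97.8% ± 0.220 of the aldolases, Eno1 96.4% ± 0.349 of the enolases and Ldha, the lactate-forming form, 99.5% ± 0.0682 of the lactate dehydrogenases, with Ldhb at 3.21 ± 0.571. The muscle-type pyruvate kinase gene Pkm stood at 439 ± 30.8, and Pklr, the liver form, had no count. At other steps members were closer: Hk2 held 60.7% ± 1.77 of the hexokinases, 1.61-fold above Hk1, and Pfkp and Pfkl took 47.8% ± 0.979 and 40.9% ± 2.07 of the phosphofructokinases. Both orders held in all 4 libraries. All 19 citric acid cycle genes were present, from 67.7 for Mdh1 to 1.82 for Idh1, the lowest, and all 7 pentose phosphate genes, led by Taldo1 at 62.01 ± 6.57 and Tkt at 54.1 ± 0.2204.

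**Figure D4:**
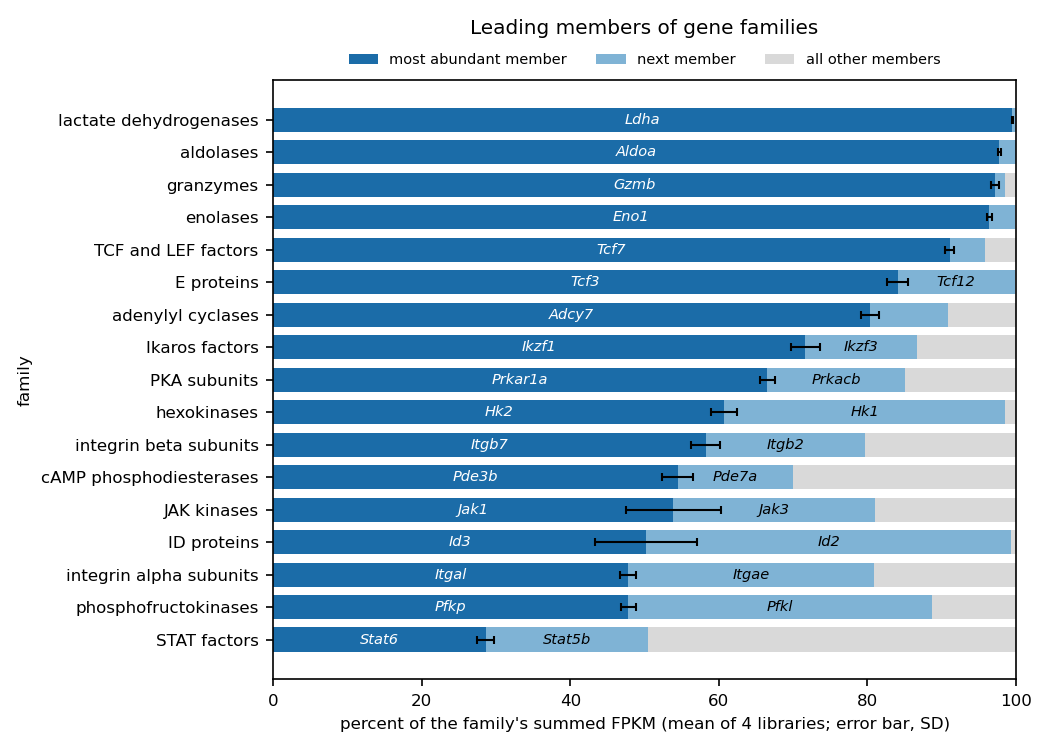
Share of each family's summed FPKM (x axis, percent, mean of 4 libraries) taken by the most abundant member (dark, with an error bar of 1 SD), the next (light) and all others (grey), for 17 families. Ldha fills its family almost alone at 99.5%, Id3 and Id2 divide theirs about equally, and Stat6 holds 28.6% of the STAT factors.

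The enzymes that make and break cAMP were likewise led by single members. Adcy7 held 80.4% ± 1.19 of the adenylyl cyclases at 31.6 ± 3.55, followed by Adcy3 at 4.12 ± 0.391 and Adcy6 at 3.31 ± 0.394, and Adcy2 and Adcy8 had no count. Of the protein kinase A subunits, the regulatory Prkar1a held 66.5% ± 0.981 at 121 ± 9.63, and the catalytic Prkacb stood at 33.7 ± 3.33, 1.84-fold above Prkaca (SD 0.321). Among the phosphodiesterases Pde3b held 54.4% ± 2.05 at 44.3 ± 5.83, then Pde7a at 12.7 ± 1.13 and Pde4d at 9.99 ± 0.754, and Pde3a had no count. Of 12 enzymes of prostaglandin and related lipid synthesis 2 were present, Ptges3 and Ptges2, the latter at 2.07 ± 0.161. Ptgs1 and Ptgs2, the cyclooxygenases, were at 0.0137 ± 0.0193 and 0.0137 ± 0.0106, and Hpgd, which degrades PGE2, had no count. Ptges3, at 56.7 ± 5.998, is also the HSP90 co-chaperone p23. Its near-identical pseudogene Ptges3-ps was listed at 53.5, so the level of Ptges3 is uncertain.

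Kinases close to the T cell receptor were abundant, with Lck at 196 ± 17.2, Zap70 at 76.3 ± 7.47 and Fyn at 56.2 ± 5.86, and their myeloid and B cell relatives Syk, Lyn and Btk lay between 0.0544 and 0.138. Pik3cd, the leukocyte PI3K subunit, held 57.0% ± 1.67 of its list at 149.6 ± 10.2, and Akt1 stood at 43.98 ± 1.86 above Akt2 at 21.5 ± 2.09. Of the phosphatases that oppose AKT all 8 were present, led by the catalytic subunit gene Ppp2cb at 48.6 ± 1.89 and Inpp4b at 42.3 ± 6.22.

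The granzymes were led by Gzmb alone. Gzmb (chr14:56258838-56262260, minus strand), which cleaves caspase substrates in target cells, stood at 353, 490.5, 461 and 687 and held 97.2% ± 0.496 of the family. It was highest in replicate 4 and lowest in replicate 1. Gzma stood at 6.84 ± 0.843, Gzmc at 5.22 ± 1.56 and Gzmk at 0.463 ± 0.0541, and Gzmd, Gzme, Gzmg and Gzmn had no count. Perforin (Prf1), with which granzymes enter target cells, was at 3.196 ± 1.13, whereas the granule proteins Nkg7 at 211 ± 18.8 and Srgn at 111 ± 7.13 were abundant. Cathepsin W (Ctsw), of cytotoxic cells, led the cathepsins at 281 ± 30.5.

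Among other enzymes, Hprt led nucleotide synthesis and salvage at 138 ± 8.81, Rrm2, the ribonucleotide reductase subunit of S phase, stood at 92.8 ± 6.34, and Tyms at 12.2 ± 0.866. Phgdh, the first enzyme of serine synthesis, stood at 122 ± 5.69. Scd2, a fatty acid desaturase, was 146-fold above its paralogue Scd1 (SD 50.3) at 146 ± 15.04. The 2 genes match at least 95% over at least 300 bases, so reads may be split and the fold is uncertain. Of the DNA methyltransferases, the maintenance enzyme Dnmt1 stood at 52.7 ± 0.642 and the de novo enzymes Dnmt3a and Dnmt3b at 5.63 ± 0.608 and 4.03 ± 0.274. Ezh2, the H3K27 methyltransferase, stood at 30.9 ± 1.49 and Hdac7, the class IIa deacetylase of T cells, led the deacetylases at 78.9 ± 6.14.

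Transcripts of dividing cells were abundant. All 17 S and G2/M genes reached an FPKM of 10 in all 4 libraries, beside 4445 of all 54532 genes. They were led by Pcna at 181 ± 15.1, Stmn1 at 173 ± 12.4 and Top2a at 111 ± 7.79, and Mki67 stood at 86.1, 87.02, 80.4 and 87.8. Cdk4 stood at 76.2 ± 1.87 beside its inhibitor Cdkn1b (p27) at 78.9 ± 8.24, and the order of the 2 could not be told. Of the D cyclins, Ccnd2 stood at 28.8 ± 2.67, Ccnd3 at 24.4 ± 1.06 and Ccnd1 at 0.135 ± 0.0351. In the BCL2 family Mcl1 led at 106 ± 6.71, Bcl2 stood at 37.6 ± 2.42 and Bcl2l1 at 12.9 ± 1.91, and of the pro-apoptotic members Bax stood at 69.98 ± 1.56, Bbc3 (PUMA) at 29.6 ± 4.504 and Bcl2l11 (BIM) at 27.1 ± 1.898.

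Of 47 genes of secreted proteins 25 were present, beside 9266 of 22046 protein-coding genes. Of 28 cytokine genes 14 were present, led by lymphotoxin β (Ltb) at 496 ± 87.8 and Mif at 432 ± 19.7, and Lta stood at 31.95 ± 4.25 and Tnf at 14.02 ± 2.34. Ifng stood at 2.505, 3.56, 5.29 and 19.3 and Il2 at 0.368, 0.694, 1.28 and 2.795, both highest in replicate 4. Il17a and Il9 had no count, which allows up to 0.108 and 0.236. Of the chemokines Ccl5 stood at 35.7 ± 2.11, Ccl4 at 11.7, 11.02, 17.96 and 32.7 and Xcl1 at 12.5, 12.2, 12.9 and 26.3, and Ccl22 and Cxcl2 had no count.

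Genes at the bottom of the scale were described by what the depth allows. No count was found in any library for 30088 of 54532 genes, among them 6718 of 22046 protein-coding genes. A count of 0 allows up to 3 counts, which corresponds to an FPKM of up to 0.0324 for Gata4, 0.0239 for Zbtb16 (PLZF), 0.0218 for the adenosine receptor Adora1 and 0.131 for the short gene Gzmd in the shallowest library, and these limits cover counting error only. Just above 0, Bcl11a had 2 counts in all, and Pde7b and Il21 had 1 each.

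Markers of other cells that the cultures could hold were low, with exceptions. The 12 myeloid markers were all below an FPKM of 1 and summed to 0.646 to 1.12, with Lyz2, S100a8, S100a9, Clec7a and Siglech at 0 counts. Of 8 NK markers 1 was present, Eomes, which CD8+ T cells also express, at 4.13 ± 1.13. Fcer1g and Tyrobp were at 0.432 ± 0.0472 and 0.305 ± 0.116, Ncr1 and Klra8 had no count, and the list summed to 3.72 to 6.43. Of the 9 B cell markers, Cd79b was present at 8.74 ± 1.41. Its partner Cd79a stood at 0.983, 1.13, 1.79 and 1.02, and Pax5 was at 0.0248 ± 0.0322. Ms4a1 had 0, 0, 29 and 3 counts and Cd4 had 4, 2, 40 and 1, so both stood out in replicate 3. The B cell list summed to 10.6, 9.93, 12.7 and 7.86, and its part in the values of replicate 3 was not tested. Of the CD4 T cell markers Zbtb7b (ThPOK) was present at 4.098 ± 0.595 and Foxp3 was listed at 1.41 ± 0.492. Of 6 stromal markers 2 were present, Pecam1 and the epithelial marker Epcam, at 2.16 ± 0.399. Pecam1, expressed by endothelium and also by T cells, stood at 16.7 ± 1.51, while Cdh5, specific to endothelium, was at 0.04498 ± 0.0512. In bulk RNA, fewer cells of a type and less RNA per cell cannot be told apart.

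The 4 libraries differed strongly in a small set of genes. The range over libraries of log2(CPM + 1), where CPM is the count scaled to library depth, was 0.23 at the median of 9472 protein-coding genes, and exceeded 1 in 99 genes. Among genes of any type with a mean FPKM of at least 1, the widest ranges were those of the pseudogene Gm2260, of Ifng (2.72), Slc35d3 (2.63), Gapdh (2.54), Gm47283 (2.52), Tnfrsf4 (2.44), the pseudogene Gm12411, Eps8l1 (2.19), the noncoding Gm43305 and the pseudogene Gm12751. Of the 50 protein-coding genes with the widest range, 40 (80%) were highest in replicate 4 and lowest in replicate 1, against 19.8% of all 9472. These 40 included Ifng, Il2, Tnfrsf4, Tnfrsf9 and Ccl3 and, named after their values were seen, the stress-induced factor Atf3 at 1.72, 2.26, 4.44 and 7.58, the nuclear receptor Nr4a3 at 6.98, 8.15, 12.2 and 19.9, the cytokine Lif at 2.12, 3.37, 3.61 and 8.697 and the opioid precursor gene Penk at 0.387, 0.525, 0.7498 and 3.04. Without replicate 1 the number of genes with a range over 1 was 40, and without replicate 4 it was 36.

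The stem-like list held many genes with the opposite order. Of its 16 present genes, 12 were highest in replicate 1 and 12 were lowest in replicate 4 by FPKM. By CPM, each of these held for 24.3% of all 9472 protein-coding genes. The scales are unlike: relative to counts scaled by depth and length, FPKM ran at 0.955 in replicate 1 and 0.892 in replicate 4. This lifts replicate 1 over replicate 4, and the shares of all genes by FPKM were not computed. Whether the stem-like counts differ from the background therefore cannot be told. S1pr1 stood at 105, 85.9, 68.5 and 53.04 and Klf2 at 116, 97.2, 98.9 and 71.6, both with replicate 4 lowest, as were Tcf7, Lef1 and Id3. Of the 15 present effector and exhaustion genes, 7 were highest in replicate 4 and 7 lowest in replicate 1 by FPKM. By CPM the shares of all 9472 genes were 36.0% and 36.4%. Because the scales are unlike, whether the effector counts differ from the background cannot be told. The CD8 T cell markers also leaned to replicate 1 by FPKM, with 11 of 15 highest there and 13 lowest in replicate 4. The same 24.3% by CPM applies here with the same limit. Replicate 1 was also the shallowest library, with 22678254 counts. The part of depth in these differences was not tested. With CPM scaled by TMM factors, 37 of the 50 widest genes were highest in replicate 4 and lowest in replicate 1, against 12.8% of all 9472.

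**Figure D5:**
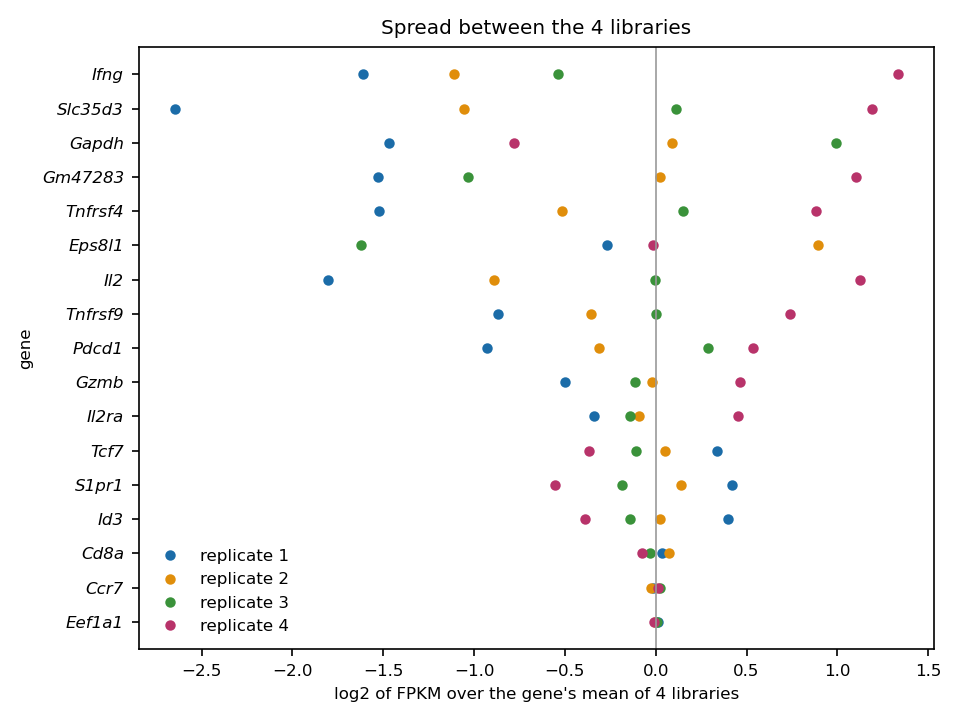
Level of 17 genes in each library relative to the gene's own mean (x axis, log2), with 1 point per library, coloured by replicate. Ifng, Il2, Tnfrsf4, Pdcd1 and Gzmb have replicate 4 at the right and replicate 1 at the left, Tcf7, S1pr1 and Id3 the reverse, and Ccr7 and Eef1a1 lie within a narrow band around 0.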

How the data were processed

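Bulk RNA of the 4 libraries was sequenced in pairs after poly(A) enrichment. The deposited count table was made by the authors with HISAT2 2.0.5 on GRCm38 (mm10) and featureCounts 1.5.0-p3, and the deposited FPKM were computed by the authors from those counts and gene lengths. DESeq2 1.20.0, also listed in the submitters' processing notes, was not used here. The annotation release and the use of strand are not given in the sources used here. Libraries were grouped by their labels. Means, SDs, ranks and shares were computed from FPKM in pandas 2.3.3 and numpy 2.4.6, with rankings over genes of at least 200 bases. TMM factors came from edgeR 4.0.16 in R 4.3.3. Spread was the range of log2(CPM + 1) among genes with at least 50 counts in 1 library, a step tested on simulated data. A count of 0 was given an upper limit of 3 counts, for counting error only. Start sites came from RefSeq on GRCm38.p6, and exon overlaps and copies from GENCODE M21.

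Genes were named if among the 20 most abundant protein-coding genes, transcription factors or enzymes, if markers, if at the top or bottom of one of 80 lists, or if among the 10 with the widest spread; other members were named after their values were seen. Members and lists were chosen with earlier results of these data known, and 4 of 859 list symbols were not matched. Other thresholds, units, scalings and left-out replicates were tried. Results for some genes are not reported here.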

Additional observations from a re-analysis of the deposited data

Results flagged for a closer look

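In 10 of 261 named genes 1 library lay apart from the other 3, its gap to the nearest being a larger part of the whole range than Dixon's critical value allows; chance flags about 1 in 20 such groups. No explanation was tested. B2m was highest in replicate 1 at 2660.0 FPKM, with the others between 2336 and 2388 (gap over range 0.842). Cd4 was highest in replicate 3 at 0.264 FPKM, with the others between 0.00708 and 0.0418 (gap over range 0.865). Ifng was highest in replicate 4 at 19.3 FPKM, with the others between 2.505 and 5.29 (gap over range 0.835). Itgb7 was lowest in replicate 4 at 197 FPKM, with the others between 243 and 248 (gap over range 0.888). Ms4a1 was highest in replicate 3 at 0.125 FPKM, with the others between 0 and 0.0138 (gap over range 0.889). Penk was highest in replicate 4 at 3.04 FPKM, with the others between 0.387 and 0.7498 (gap over range 0.863). Phgdh was highest in replicate 4 at 131 FPKM, with the others between 119 and 120.0 (gap over range 0.882). Rps27 was highest in replicate 1 at 1375 FPKM, with the others between 790.2 and 832 (gap over range 0.929). Runx3 was highest in replicate 3 at 42.9 FPKM, with the others between 34.1 and 35.4 (gap over range 0.852). Xcl1 was highest in replicate 4 at 26.3 FPKM, with the others between 12.2 and 12.9 (gap over range 0.952).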

How the results depend on the processing

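No paired analysis was possible because the results come from 1 group and from no test between groups. The 100 most abundant genes held 33.2% of the summed FPKM with no minimum length and 30.9% without mitochondrial genes, and the 100 most abundant by counts held 19.9% of the counts. By counts, which are not scaled by length, 63 of the 100 genes were shared with those by FPKM, against 100 by TPM, 100 after TMM scaling and 99 by the median. Leaving out 1 replicate gave 31.96% to 32.5%. The number of protein-coding genes with a log2(CPM + 1) range over 1 was 99, and 36 to 99 with 1 replicate left out. It was 40 without replicate 1, 36 without replicate 4 and 92 after TMM scaling, and a range over fewer libraries cannot be wider. Genes present numbered 9221 to 13172 under other thresholds or units and 10663 to 10781 with a replicate left out. Counts of present genes moved by over 1.5 times in 2 of 80 lists at an FPKM of 0.5, in 5 at 2 and in 8 at a TPM of 1. Of 17 families, 15 had the same leading member by counts, where Id2 led Id3 and Stat3 led Stat6, and 13 of the 17 shares moved by more than 1 SD. Tcf7 ranked first among transcription factors by TPM, counts, the median and without each replicate. Depth limits the genes without a count, which numbered 30584 to 31223 with a replicate left out. The alternatives on Tcf7's rank, on order, on genes without a count and on promoter windows were chosen after seeing the data.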

Other observations

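The T cell receptor variable segments were spread over many genes. All 22 Trbv segments in the table had counts, from 9254 to 13309 counts per library in all. Trbv13-2 was the most used at 12.7% ± 0.715 of the Trbv counts (SD, n = 4), followed by Trbv12-2 at 9.55% ± 0.628 and Trbv29 at 9.32% ± 0.869. Of 108 Trav segments 93 had counts, and Trav16n led at 6.32% ± 0.324, although Trav genes of duplicated clusters share sequence and their split is uncertain.

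The GIMAP genes, a cluster of GTPases of lymphocytes that bears on their survival, were all present. Gimap4 stood at 524, 538, 500.1 and 473 FPKM in the 4 libraries, Gimap3 followed at 290.1 ± 24.4, and Gimap5 was lowest at 19.6 ± 1.39. Gimap4 was thus close to Gzmb in level and narrower in spread.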
